A study of Macaca mulatta with 102 samples.

Results

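The proteasome genes of circulating rhesus macaque T cells were the genes whose single platform gene symbol begins with PSMA, PSMB, PSMC, PSMD, PSME or PSMF followed by a digit. The rule found 29 genes among 14133 with a single-gene probe set, each read on its probe set of highest mean. Of these, 28 passed the filter on low values, among 10718 genes in all. The exception was PSMB11, the thymus-specific subunit, whose log2 signal reached no more than 5.23 on any array. One of the 28, PSMC3IP, shares the prefix but encodes a meiotic recombination cofactor and not a subunit.

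T cells positive for CD3 were sorted from blood, and their RNA was hybridised to 102 Affymetrix arrays from 66 animals. The tested groups held 56 arrays taken after haematopoietic cell transplantation. Allogeneic recipients had no prophylaxis (NoRx.F, 4 arrays, days 6 to 12), sirolimus, an mTOR inhibitor (Siro.F, 4, days 12 to 24), tacrolimus with methotrexate (Tac.Mtx.D14, 3, day 14, and Tac.Mtx.F, 3, days 26 to 67), or sirolimus together with belatacept, which blocks costimulation through CD28 (Bela.Siro.D14, 3, day 14, Bela.Siro.D30, 2, day 30, and Bela.Siro.F, 7, days 26 to 105). Others received KY1005, an antibody against OX40 ligand, alone (KY1005.D14, 2, days 14 to 16, and KY1005.F, 3, days 16 to 23) or with sirolimus (KY1005.Siro.D14, 5, day 14, KY1005.Siro.D28, 5, day 28, and KY1005.Siro.F, 4, days 97 to 106). Autologous recipients, given their own cells back, were sampled on day 14 (Auto.D14, 3), days 30 to 36 (Auto.D36, 4) and day 100 (Auto.D100, 4). Healthy.Control held 46 arrays of 45 animals. Every group was sorted T cells of whole animals, so transplantation, its conditioning and the prophylaxis changed together against the healthy controls, and the labels do not say what F stands for.

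The proteasome degrades proteins tagged with ubiquitin. Its 20S core is a barrel of alpha and beta rings with the catalytic sites on beta subunits, and the 19S particle at its ends recognises, unfolds and feeds in the substrates. Interferon, above all interferon gamma, induces replacement catalytic subunits, the immunosubunits PSMB8, PSMB9 and PSMB10, which take the places of PSMB5, PSMB6 and PSMB7, and the PA28 activator made of PSME1 and PSME2, and the altered barrel favours peptides that fit MHC class I. T cells carry immunosubunits at rest, and dividing cells need the proteasome to destroy cyclins.

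The interferon-induced genes measured here were PSMB8, PSMB10 and PSME2, and the constitutive ones were 21 subunits, 9 of the 20S core and 12 of the 19S particle. The 4 others were PSMD9, a chaperone of 19S assembly, PSME3, the nuclear PA28 gamma activator, PSMF1, the PI31 inhibitor, and PSMC3IP. PSMB9 and PSME1 are not analysed here. A gene was called when limma's p, adjusted by the Benjamini-Hochberg method over 31711 probe sets in a fit of all groups with batch as a term, was under 0.05. Differences are in log2 units of RMA signal, and because different probe sets bind differently, levels are compared between groups and not between genes.

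Of 6 measured core T cell genes, 4 had a healthy mean of at least 8 on the log2 scale, as did 1 of 10 myeloid genes, 0 of 6 B cell genes, 0 of 7 granulocyte genes, 4 of 5 NK cell genes, 2 of 6 plasma cell genes, 1 of 6 erythroid genes and 2 of 7 platelet genes. The log2 ratio of the 3′ to the 5′ actin control, which is high where RNA is degraded or labelled short, lay between 0.25 and 3.95 in healthy arrays and exceeded 2.5 on 6 arrays, 2 of them in Auto.D14. In these bulk samples, fewer cells of a type and less RNA per cell cannot be told apart. All KY1005 groups lay in a single batch, and animals recurred between groups.

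In NoRx.F most measured parts of the complex were higher. PSME2, the interferon-induced activator, stood at 11.96, 12.03, 12.35 and 12.62 in the 4 NoRx.F animals, against a lowest, median and highest of 10.60, 10.90 and 11.15 in healthy controls. The groups did not overlap, and the difference was 1.35 (SE 0.12, adjusted p = 3.37e-15). PSMB10, the immunosubunit with trypsin-like activity, stood at 11.53, 11.80, 11.87 and 12.03 in NoRx.F, against 9.56, 10.26 and 10.72 in healthy controls (difference 1.54, SE 0.16, adjusted p = 5.54e-13). Again every NoRx.F animal lay above every healthy one, and this was the largest difference of the 28 genes.

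PSMB8, the immunosubunit with chymotrypsin-like activity, stood at 11.68, 11.91, 12.25 and 12.67 in NoRx.F, against 10.56, 11.34 and 12.01 in healthy controls. Here the groups overlapped. PSMB8 varied most among healthy animals of these 3 genes, with an SD of 0.37, and its difference was the smallest of the 3, at 0.82 (SE 0.21, adjusted p = 0.00159). All 3 interferon-induced genes rose in NoRx.F.

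The constitutive catalytic subunits rose as well. PSMB6, the caspase-like subunit, stood at 11.37, 11.64, 11.91 and 12.05 in NoRx.F, against 10.34, 10.62 and 10.98 in healthy controls (difference 1.06, SE 0.10, adjusted p = 4.64e-14). PSMB7, the trypsin-like subunit, stood at 11.46, 11.58, 11.94 and 11.97 in NoRx.F, against 10.69, 11.12 and 11.35 in healthy controls (difference 0.63, SE 0.11, adjusted p = 2.28e-06). Neither gene overlapped between the groups. PSMB5, the chymotrypsin-like subunit, stood at 8.26, 8.75, 8.78 and 8.84 in NoRx.F, against 7.43, 8.01 and 8.84 in healthy controls, and it overlapped (difference 0.66, SE 0.15, adjusted p = 0.000499).

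In the rest of the core, PSMB2, a beta subunit without a catalytic site, stood at 11.09, 11.14, 11.61 and 11.71 in NoRx.F, against 9.73, 10.15 and 10.46 in healthy controls. Its difference of 1.25 (SE 0.11, adjusted p = 7.21e-16) was the largest among the constitutive subunits, and the groups did not overlap. The other beta subunit measured, PSMB1, was higher by 0.75 (SE 0.11). All 4 alpha ring subunits, which form the gates of the barrel, were called higher, with differences of 0.92 for PSMA1, 0.89 for PSMA2, 0.69 for PSMA3 and 0.49 for PSMA7. For PSMA2 this holds for the probe set used: of its 5 probe sets 3 were lower, and the mean of all 5 differed by -0.45.

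On the 19S particle, PSMD8, a lid subunit, stood at 9.86, 9.96, 10.16 and 10.34 in NoRx.F, against 8.52, 9.02 and 9.34 in healthy controls, without overlap (difference 1.06, SE 0.12, adjusted p = 5.84e-11). All 7 non-ATPase subunits were called higher, the smallest difference being 0.37 (SE 0.13) for PSMD7, a lid subunit that holds the deubiquitinase in place. Of the 5 ATPases, which unfold the substrate, 4 were called higher, led by PSMC2 and PSMC3 at 0.74 each, and PSMC4 had a difference of 0.42 (adjusted p = 0.0509).

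Outside the particle itself, the chaperone PSMD9 was higher by 0.67 (SE 0.11) and the inhibitor PSMF1 by 0.36 (SE 0.12, adjusted p = 0.0203). PSME3, whose PA28 gamma activator is not induced by interferon, had a difference of 0.16 (SE 0.12, adjusted p = 0.344). PSMC3IP was lower by 0.46 on the log2 scale (SE 0.18, adjusted p = 0.0479), and 0 of the 4 NoRx.F animals lay above its healthy mean. This holds for the probe set used: of 8 PSMC3IP probe sets 1 was lower and 0 higher, and the mean of all 8 differed by 0.02.

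Altogether 25 of the 28 genes were called higher in NoRx.F and 1 lower, where 19.0% of all tested genes were called higher and 15.2% lower. Among genes with a mean of at least 8, 24.6% were called higher and 25.5% lower. The median difference was 0.69 over the 28 genes and 0.05 over all 10718. On the same arrays all 17 cell cycle genes rose, with a median difference of 2.47 and a mean score of 1.78 to 2.98 in NoRx.F, against -0.51 to 0.71 in healthy controls. The myeloid markers ranged from -0.33 to 2.39 in NoRx.F, against -1.25 to 1.59 in healthy controls, and 3 of 10 were called higher. The core T cell score was -0.59 to -0.10 in NoRx.F, against -0.45 to 0.35 in healthy controls (2 of 6 genes lower). The plasma cell score was 0.19 to 0.55 in NoRx.F, against -0.35 to 0.51 in healthy controls (2 of 6 higher), and the NK cell score -0.73 to -0.39, against -1.36 to 1.16 (2 of 5 lower). The part of dividing cells and of RNA of other cell types in the proteasome difference was not tested beyond a fit with the myeloid score as a covariate, with which 23 genes were called higher and 1 lower. The count lay between 22 and 26 when any 1 NoRx.F animal was left out.

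**Figure D1:**
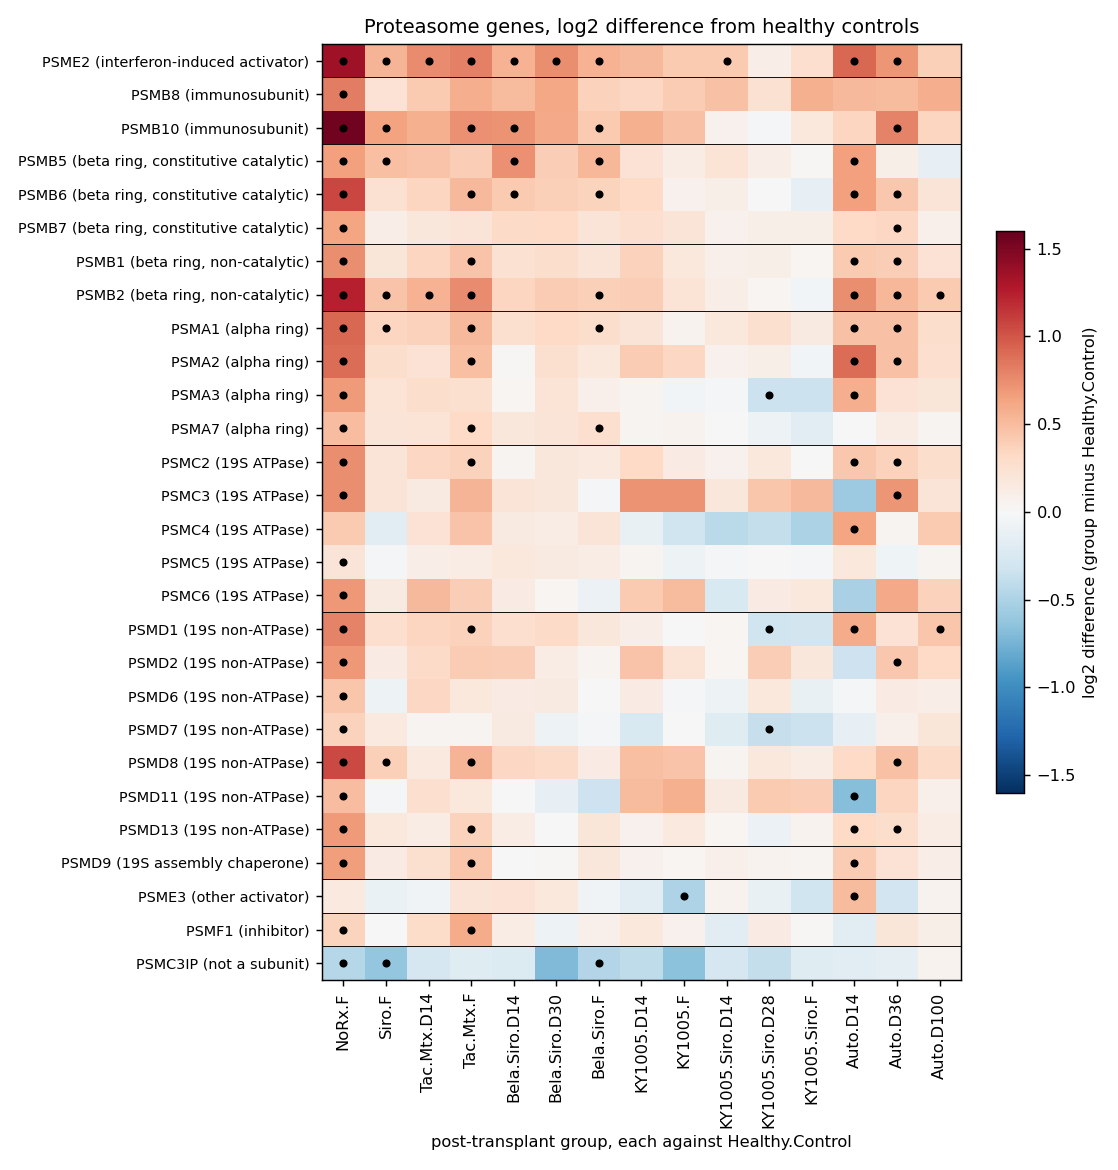
Log2 difference (colour) of each of the 28 proteasome genes (down the page, by role) in each of the 15 post-transplant groups against Healthy.Control, with a black dot where the gene was called at an adjusted p under 0.05. NoRx.F carries 26 dots, and PSME2 carries dots in 10 of 15 groups, against 1 for PSMB8.

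In Siro.F, 6 of the 28 genes were called higher and 1 lower, where 6.04% of all genes were called higher and 4.92% lower. The 6 were PSMB10 (difference 0.64, SE 0.15, adjusted p = 0.00227), PSME2 (0.55, SE 0.12), PSMB5 (0.48, SE 0.15), PSMB2 (0.45, SE 0.10), PSMD8 (0.39, SE 0.12) and PSMA1 (0.34, SE 0.11). PSMB10 stood at 10.36, 10.82, 11.15 and 11.23 in Siro.F, so that 3 animals lay above the healthy maximum of 10.72 and 1 within the healthy range. The other catalytic subunits, PSME3 and PSMF1 had differences of 0.24 (PSMB6), 0.23 (PSMB8), 0.11 (PSMB7), -0.10 (PSME3) and 0.01 (PSMF1), none of them called, and PSMC3IP was lower by 0.62 on the log2 scale. The 7 calls rested on a pair of animals: 1 gene was called without R.18 and 3 without R.13.

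Against NoRx.F, Siro.F had 16 of the 28 genes lower and 0 higher, where 5.17% of all genes were lower and 3.85% higher, and the median difference was -0.54 over the members and -0.03 over all genes. PSMB10 stood at 10.36 to 11.23 in Siro.F, against 11.53 to 12.03 in NoRx.F, with no overlap (difference -0.90, SE 0.19, adjusted p = 0.00111). PSMB6 stood at 10.67, 10.85, 10.96 and 11.13 in Siro.F, against 11.37 to 12.05 in NoRx.F (difference -0.82, SE 0.12, adjusted p = 4.92e-06). PSME2, PSMB2 and PSMD8 were lower by 0.80, 0.79 and 0.67, each without overlap, and the lower group also held PSMB7 (-0.53, SE 0.13). PSMB8 differed by -0.58 (SE 0.25, adjusted p = 0.174) and PSMB5 by -0.18 (SE 0.19, adjusted p = 0.68), and neither was called. Over the batches that hold these groups alone, 6 genes were lower, and 10 were without Siro.F animal R.16. NoRx.F was sampled on days 6 to 12 and Siro.F on days 12 to 24, so prophylaxis and day cannot be told apart.

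KY1005.F against NoRx.F gave 15 of 28 genes lower and 0 higher, where 6.51% of all genes were lower and 4.53% higher. Its median difference was -0.55 over the members and -0.11 over all genes. PSMB10 stood at 10.56, 10.89 and 11.03 in KY1005.F, against 11.53 to 12.03 in NoRx.F (difference -1.08, SE 0.24, adjusted p = 0.00237). PSMB2 stood at 10.29, 10.51 and 10.56 in KY1005.F, against 11.09 to 11.71 in NoRx.F (difference -1.03, SE 0.17, adjusted p = 1.95e-05). Neither overlapped, and PSMB6 (-0.99), PSME2 (-0.94) and PSMA1 (-0.86) followed. PSME3 was lower too, at 5.92, 6.14 and 6.15 in KY1005.F, against 6.60 to 6.78 in NoRx.F (difference -0.64, SE 0.18, adjusted p = 0.014). These 2 groups share no batch and were sampled on different days, so prophylaxis, day and batch cannot be told apart. Both comparisons use the same NoRx.F arrays.

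Tac.Mtx.D14 had 2 genes higher, PSME2 (difference 0.76, SE 0.13, adjusted p = 0.00026) and PSMB2 (0.55, SE 0.12, adjusted p = 0.00451), and 0 lower, where 1.07% of all genes were higher and 0.103% lower. PSME2 stood at 11.47, 11.66 and 11.78 in Tac.Mtx.D14, all above the healthy maximum of 11.15. In Tac.Mtx.F, 14 of the 28 genes were higher and 0 lower, where 10.1% of all genes were higher and 2.82% lower, and the median difference was 0.40 against 0.05 over all genes. PSME2 stood at 11.40, 11.81 and 11.83 in Tac.Mtx.F and PSMB2 at 10.76, 10.81 and 11.01, all above every healthy animal (differences 0.81 and 0.76, SE 0.13 and 0.12).

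Next in Tac.Mtx.F came PSMB10 at 10.67, 10.92 and 11.12, which overlapped the healthy range (difference 0.74, SE 0.17, adjusted p = 0.00221). PSMF1, the inhibitor, rose too, with 8.89, 9.10 and 9.30 in Tac.Mtx.F, against 8.28, 8.57 and 8.94 in healthy controls (difference 0.60, SE 0.13, adjusted p = 0.0015). PSMD8 rose by 0.54 and PSMB6 by 0.52, whereas PSMB8 (0.58, SE 0.23, adjusted p = 0.0726), PSMB5 (0.40), PSMB7 (0.21) and PSME3 (0.20) were not called. The count was 6 without R.21 and 8 without R.20, and in Tac.Mtx.D14 it was 1 without either of the same animals and 4 without R.19.

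In Bela.Siro.D14, PSMB5 (difference 0.73, SE 0.17), PSMB10 (0.72, SE 0.17), PSME2 (0.55, SE 0.13) and PSMB6 (0.41, SE 0.11) were called higher and 0 genes lower, where 2.31% of all genes were higher and 0.765% lower. The 3 animals differed widely: PSME2 stood at 10.95 in R.49, within the healthy range, and at 11.52 and 11.81 in the others. Without R.42 no member was called at an adjusted p under 0.05, and without R.38 there were 2 calls. PSMB8 (0.51), PSMB7 (0.31), PSME3 (0.23) and PSMF1 (0.12) were not called in Bela.Siro.D14. The myeloid score of the 3 animals was 0.30 in R.49, 2.15 in R.38 and 2.84 in R.42, and with that score as a covariate 1 gene was called. In Bela.Siro.D30, with 2 animals, PSME2 alone was called higher (11.54 and 11.70, difference 0.74, SE 0.16, adjusted p = 0.0028), where 0.877% of all genes were higher and 0.345% lower, and it was not called without R.42.

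Bela.Siro.F, the largest group, had 7 of 28 genes higher and 1 lower, where 7.86% of all genes were higher and 3.82% lower. PSME2 had a lowest, median and highest value of 11.25, 11.44 and 11.58 in its 7 animals, all above the healthy maximum of 11.15 (difference 0.56, SE 0.10, adjusted p = 2.01e-05). PSMB5 had 8.03, 8.48 and 8.87 in Bela.Siro.F, against 7.43, 8.01 and 8.84 in healthy controls, which overlapped (difference 0.53, SE 0.12, adjusted p = 0.00197). The others were PSMB10 (0.42), PSMB2 (0.39), PSMB6 (0.36), PSMA1 (0.28) and PSMA7 (0.27). These 7 belong to the 20S core or are interferon-induced. Actin ratios were 1.02 to 2.32 in Bela.Siro.F, against a healthy mean of 1.08. Over healthy animals the called PSMB5 (r = 0.457) and PSMA7 (0.4) ran up with the ratio, but PSMB10 (-0.492) ran down. Of uncalled ATPase and non-ATPase subunits, PSMC3 (-0.897), PSMD11 (-0.808) and PSMC6 (-0.74) ran down, but PSMC5 (0.534) and PSMC4 (0.469) ran up. The part of the ratio in that split between subunits was not tested. PSMB8 (0.37), PSMB7 (0.20), PSMF1 (0.08) and PSME3 (-0.05) were not called. PSMC3IP was lower by 0.47 on the log2 scale. The myeloid score lay between 0.57 and 2.88 in these animals, and as a covariate it left 3 genes higher and 1 lower. Without R.66 there were 5 calls.

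In the groups given KY1005 at most 3 members were called against healthy controls. KY1005.D14, with 2 animals, had 0 genes called, with 0.168% of all genes higher and 0.103% lower, although 11 members were higher at an unadjusted p under 0.05. PSME2 stood at 11.47 and 11.57 in KY1005.D14, above every healthy animal, with a difference of 0.52 (SE 0.17, adjusted p = 0.147). KY1005.F had 0 genes higher and 1 lower, where 1.79% of all genes were higher and 2.03% lower. The 1 gene was PSME3, at 5.92, 6.14 and 6.15 in KY1005.F, against 6.10, 6.46 and 7.05 in healthy controls (difference -0.49, SE 0.14, adjusted p = 0.029), and it was not called when any 1 of the 3 animals was left out, nor within the batch that holds the group. Actin ratios were 0.29 to 0.46 in KY1005.F, against a healthy mean of 1.08, and with the ratio as a covariate the PSME3 difference was -0.34 (adjusted p = 0.156, limma). PSMB10 differed by 0.46, PSME2 by 0.42, PSMB8 by 0.40, PSMB7 by 0.21, PSMB5 by 0.12, PSMB6 by 0.07 and PSMF1 by 0.07 in KY1005.F, none of them called.

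With sirolimus added, KY1005.Siro.D14 had 1 gene higher and 0 lower, where 1.66% of all genes were higher and 2.94% lower. It was PSME2, at 11.10, 11.33, 11.39, 11.48 and 11.78 in KY1005.Siro.D14, with 4 of the 5 animals above the healthy maximum (difference 0.41, SE 0.12, adjusted p = 0.0321). That call was lost without R.217, R.218 or R.221, within the batch, and with all PSME2 probe sets averaged. The myeloid score lay between 1.03 and 2.503 in KY1005.Siro.D14, against -1.25 to 1.59 in healthy controls, and with it as a covariate the PSME2 difference was 0.34 (adjusted p = 0.118, limma). KY1005.Siro.D28 had 3 genes lower, PSMD7 (-0.37, SE 0.13), PSMA3 (-0.34, SE 0.11) and PSMD1 (-0.32, SE 0.11), and 0 higher, where 7.02% of all genes were lower and 4.24% higher. PSMB8 (0.24), PSMF1 (0.13), PSME2 (0.11), PSMB5 (0.11), PSMB7 (0.09), PSMB10 (-0.02) and PSME3 (-0.12) were not called. The 3 lower calls were lost within the batch, without R.217 and without R.221. Without R.220, 1 gene was called higher and 0 lower.

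KY1005.Siro.F had 0 genes called in either direction, where 4.48% of all genes were higher and 3.39% lower, and 4 members were higher and 5 lower at an unadjusted p under 0.05. PSMB8 differed by 0.56, PSME2 by 0.27, PSMB10 by 0.16 and PSME3 by -0.32, none of them called. Without R.217, 1 gene was called higher and 5 lower. Neither comparison within the KY1005 groups called a member: KY1005.Siro.D28 against KY1005.F had 0 of 28, where 0.793% of all genes were higher and 2.02% lower, and KY1005.Siro.F against KY1005.Siro.D14 had 0 of 28, where 1.04% were higher and 0.271% lower. At an unadjusted p under 0.05 they had 7 members (1 higher, 6 lower) and 3 members (all lower).

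**Figure D2:**
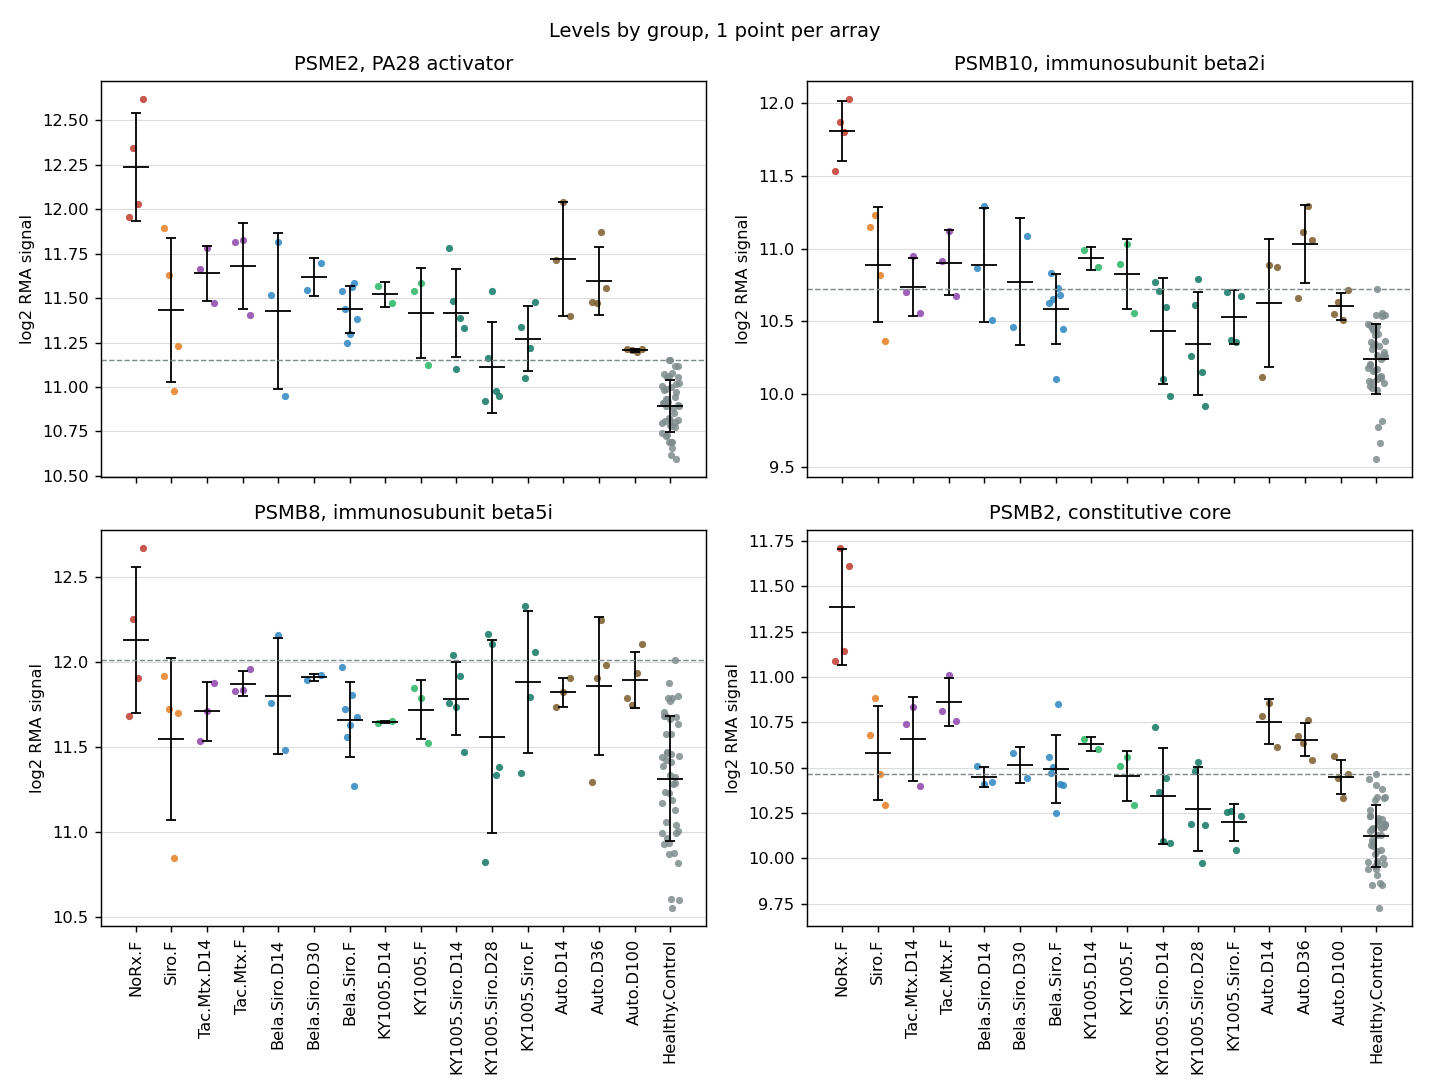
Log2 RMA signal of PSME2, PSMB10, PSMB8 and PSMB2 on every array, by group, with the mean and SD of each group in black and the highest healthy value as a dashed line. In NoRx.F all 4 animals lie above that line for PSME2, PSMB10 and PSMB2, and 2 of 4 do for PSMB8.

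After autologous transplantation, 14 genes were higher and 1 lower in Auto.D14, where 13.7% of all genes were higher and 7.80% lower. PSME2 stood at 11.40, 11.72 and 12.04 in Auto.D14, above every healthy animal (difference 0.92, SE 0.15, adjusted p = 9.15e-05). Next were PSMA2 (0.89), PSMB2 (0.75), PSMB6 (0.66) and PSMB5 (0.65), but 3 of the 5 PSMA2 probe sets were lower and the mean of all 5 differed by -0.39. PSMB10 stood at 10.12, 10.88 and 10.88 in Auto.D14 and was not called (difference 0.34, SE 0.20, adjusted p = 0.209), nor were PSMB8 (0.52), PSMB7 (0.32) and PSMF1 (-0.16). PSME3 was called higher in Auto.D14, by 0.51, and over healthy animals it ran up with the actin ratio (r = 0.656).

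The 1 lower gene in Auto.D14 was PSMD11, a lid subunit that promotes assembly, at 8.15, 8.41 and 9.24, against 7.75, 9.11 and 9.50 in healthy controls (difference -0.68, SE 0.23, adjusted p = 0.0295). PSMC3, PSMC6 and PSMD2 were low on the same 2 arrays, with PSMC3 at 7.12 and 7.42, against 8.42 on the third. Those 2 arrays, of R.201 and R.202, had actin ratios of 3.30 and 3.38, against 0.44 on that of R.200. PSMB5, called higher in Auto.D14, stood at 8.88 and 8.90 on those 2 arrays and at 8.11 on that of R.200. Over healthy animals PSMB5 ran up with the ratio (r = 0.457). With the actin ratio as a covariate 13 genes were called higher and 0 lower. The count was 6 without R.201 and 5 without R.202.

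In Auto.D36, 13 genes were higher and 0 lower, where 5.78% of all genes were higher and 5.26% lower, and the median difference was 0.34 against -0.01 over all genes. PSMB10 stood at 10.66, 11.06, 11.12 and 11.30 in Auto.D36, against 9.56, 10.26 and 10.72 in healthy controls, so that 3 of 4 animals lay above every healthy one (difference 0.79, SE 0.16, adjusted p = 0.000512). PSME2 stood at 11.47, 11.48, 11.56 and 11.87 in Auto.D36, with no overlap (difference 0.71, SE 0.12, adjusted p = 0.000119). PSMC3 (0.71), PSMB2 (0.53) and PSMA1 (0.47) came next, with PSMB6 at 0.44 and PSMB7 at 0.34. PSMB8 (0.50, SE 0.21, adjusted p = 0.117), PSMB5 (0.09), PSME3 (-0.30) and PSMF1 (0.20) were not called. Actin ratios were low in Auto.D36, from -0.39 to 0.57, and with that ratio as a covariate 7 genes were called. The count was 6 without R.201 and 8 without R.200.

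By day 100, 2 genes were called higher in Auto.D100 and 0 lower, where 1.68% of all genes were higher and 1.38% lower. They were PSMD1 (difference 0.44, SE 0.11, adjusted p = 0.0206) and PSMB2 (0.42, SE 0.11, adjusted p = 0.0272), and leaving out any 1 of the 4 animals left 0. PSME2 stood at 11.20, 11.21, 11.21 and 11.21 in Auto.D100, all just above the healthy maximum of 11.15, with a difference of 0.39 (SE 0.13, adjusted p = 0.0759).

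Across the 15 post-transplant groups, the genes differed in how often they were called higher. PSME2 was called higher in 10 groups, PSMB2 in 8, and PSMA1, PSMB10 and PSMB6 in 6 each, all with the same healthy arrays as comparator. PSMB8 was called in 1 group, though its difference was positive in all 15, from 0.23 to 0.82. PSME2 lay above every healthy animal on 48 of the 56 post-transplant arrays, PSMA1 on 38, PSMB2 on 34, PSMB10 on 26 and PSMB8 on 10, and PSMC4 and PSME3 on 0. The like count over all genes was not made, so how unusual these counts are is not known. Some animals gave more than 1 of the 56 arrays. PSMC3IP was called higher in 0 groups and lower in 3. Of the 17 cell cycle genes, 16 were higher in Siro.F, 12 in Tac.Mtx.F, 15 in Auto.D14 and 14 in Auto.D36. These are the groups with 6 or more members called higher beside NoRx.F and Bela.Siro.F. Of all genes, 6.04%, 10.1%, 13.7% and 5.78% were higher in these groups, in that order. In Bela.Siro.F, with 7 members and 7.86% of all genes higher, 1 cell cycle gene was higher. In KY1005.F, with 0 members and 1.79% of all genes higher, 6 cell cycle genes were. KY1005.D14, with 0 members called, had cell cycle scores of 1.19 and 1.40, against 0.51 to 2.19 in Siro.F and 0.32 to 1.55 in Tac.Mtx.F. In Tac.Mtx.D14, where PSME2 and PSMB2 were called, the score ran from -0.06 to 1.67. The cell cycle marker MKI67 was higher by 1.58 in Siro.F, 1.44 in Tac.Mtx.F, 2.23 in Auto.D14 and 1.83 in Auto.D36, and its part in the proteasome differences was not tested.

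To set the interferon-induced genes beside the constitutive ones, each array was given the mean log2 difference from the healthy mean over PSMB8, PSMB10 and PSME2 and over the 21 constitutive subunits. In NoRx.F the interferon-induced mean was 0.91, 1.10, 1.34 and 1.62 and the constitutive mean of the same animals was 0.59, 0.40, 0.97 and 0.85. In every NoRx.F animal the interferon-induced mean was higher, by 0.32 to 0.78, where healthy animals ran from -0.31 to 0.33. The lowest NoRx.F animal thus lay within the healthy range. This gap was not particular to NoRx.F: its group mean was positive in every post-transplant group. It ran from 0.09 in KY1005.Siro.D28 to 0.44 in Bela.Siro.D30 and 0.54 in NoRx.F. Over all post-transplant arrays, 36 of 56 had an interferon-induced mean above every healthy animal and 28 of 56 a constitutive mean above every healthy animal. Arrays of the same animal are counted separately among the 56.

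The interferon-induced mean was also set beside the wider interferon response. In KY1005.Siro.F, 20 of 31 other interferon response genes were higher, where 4.48% of all genes were. Among them IFIT1 was higher by 3.36 and CMPK2 by 2.93. The score of that list was 0.72 to 2.35 in KY1005.Siro.F, against -0.43 to 0.40 in healthy controls. The same 4 arrays had an interferon-induced proteasome mean of 0.31 to 0.59, and 0 of those 3 genes were called. NoRx.F had 19 of the 31 genes higher and 1 lower, where 19.0% of all genes were higher and 15.2% lower. Its score was 0.56 to 1.57, and all 3 interferon-induced proteasome genes were called. The cell cycle score was -0.46 to 0.60 in KY1005.Siro.F and 1.78 to 2.98 in NoRx.F. Myeloid and granulocyte markers were raised in KY1005.Siro.F (5 of 10 and 4 of 7 called higher). Myeloid scores were -0.77 to 3.98 in KY1005.Siro.F, against -1.25 to 1.59 in healthy controls. The erythroid score was 0.56 to 2.43 in KY1005.Siro.F, against -0.61 to 1.32 in healthy controls. The platelet score was 0.44 to 1.54, against -1.20 to 0.92. The part of these cell types in the interferon genes was not tested. The difference between NoRx.F and KY1005.Siro.F was itself not tested.

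**Figure D3:**
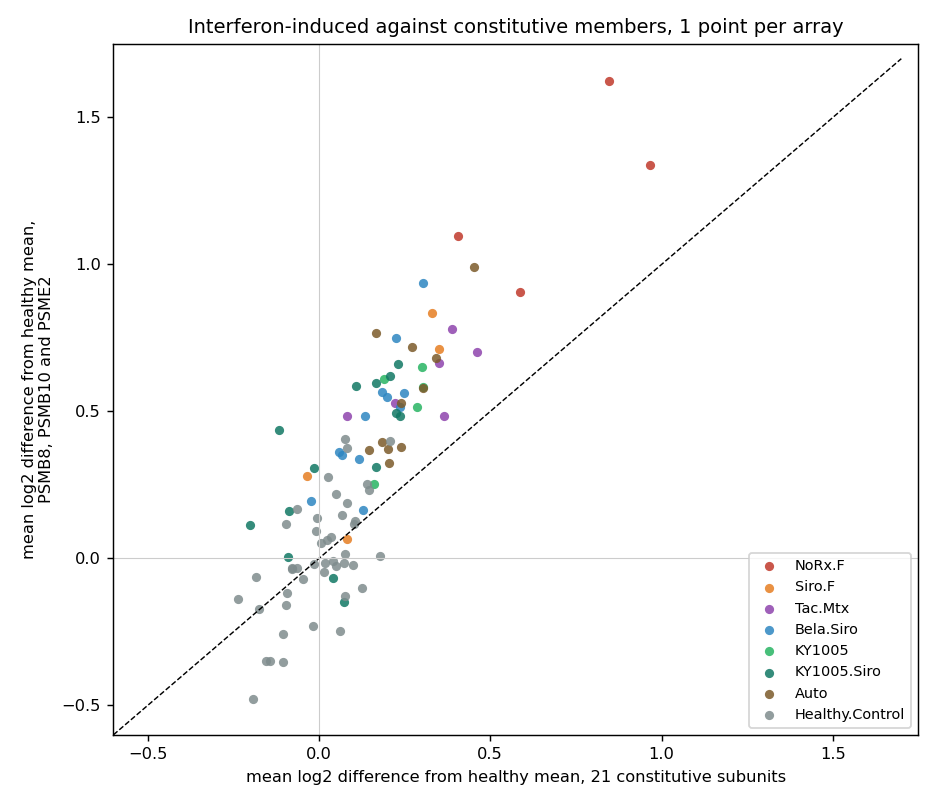
Mean log2 difference from the healthy mean of PSMB8, PSMB10 and PSME2 (vertical axis) against that of the 21 constitutive subunits (horizontal axis), 1 point per array, with the line of equal differences dashed. The 4 NoRx.F arrays lie at the upper right, between 0.91 and 1.62 on the vertical axis, and above the line.

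Whether an immunosubunit moved with the constitutive subunit of the same place in the ring was asked for PSMB10 with PSMB7 and for PSMB8 with PSMB5, as the difference of the pair on each array with the healthy mean set to 0. The 2 pairs in 15 groups gave 30 two-sided permutation tests (exact, except 100000 resamples for the 7 animals of Bela.Siro.F), adjusted over the 30. PSMB10 minus PSMB7 was 0.75, 0.81, 0.94 and 1.20 in NoRx.F, against -0.37 to 0.27 in healthy controls, a difference of 0.92 (exact permutation test, adjusted p = 7.08e-05). The pair did not overlap in Siro.F either, at 0.33 to 0.76 (difference 0.54), or in Tac.Mtx.F, at 0.37 to 0.58 (difference 0.46), or in KY1005.D14, at 0.32 and 0.44 (difference 0.38). PSMB10 had thus moved further than PSMB7 in these groups.

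The pair was also higher after correction in Tac.Mtx.D14 (difference 0.31), Bela.Siro.D14 (0.34), KY1005.F (0.34), Auto.D36 (0.47) and Auto.D100 (0.30). In the remaining 6 groups the difference ran from -0.02 in KY1005.Siro.D28 to 0.22 in Bela.Siro.D30 and did not pass. Against healthy animals of the same batch alone, the KY1005.D14 difference was 0.30 (exact permutation test, p = 0.0278, the smallest that 2 against 7 animals allow, adjusted p = 0.0903), with both KY1005.D14 animals above all 7 healthy ones, and that of KY1005.F 0.26 (adjusted p = 0.159). The 4 Auto.D100 animals also had healthy arrays of their own, and against these PSMB10 minus PSMB7 was higher by 0.167 on average, in 3 of 4 animals, with R.60 at 0.18 in Auto.D100 against 0.25 when healthy. The Auto.D36 animals had healthy arrays too, as did animals of other groups. In Auto.D36, R.62 was at 0.25 against 0.14 when healthy and R.200 at 0.49 against 0.014. R.201 was at 0.67 against 0.26 and R.202 at 0.46 against 0.0043. The permutation tests did not pair arrays of the same animal. The call in Tac.Mtx.D14 was lost without R.20 and in Bela.Siro.D14 without R.38 or R.42, and that in KY1005.F without R.211 or R.206. With 1 animal of KY1005.D14 left, the smallest p is 0.0217 before adjustment, so that setting gives values alone, 0.32 and 0.44.

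PSMB8 minus PSMB5 passed in fewer groups, but it also spread more, with a healthy SD of 0.47, against 0.16 for PSMB10 minus PSMB7. A small shift is therefore harder to see in PSMB8 minus PSMB5. In NoRx.F it was -0.40, 0.11, 0.35 and 0.63, against -1.14 to 0.70 in healthy controls, a difference of 0.17 (exact permutation test, adjusted p = 0.646). It passed in Auto.D100 alone, at 0.47, 0.69, 0.88 and 0.89, which overlapped the healthy range (difference 0.73, adjusted p = 0.00949, exact permutation test). Against their own healthy arrays these animals were higher by 0.508 on average, in 3 of 4, with R.60 at 0.47 in Auto.D100 against 0.68 when healthy. This pair ran down with the actin ratio over healthy animals (r = -0.639, n = 45), and the actin ratios of the Auto.D100 arrays lay between -0.08 and 1.00. With that healthy slope removed, an alternative chosen after seeing the data, the difference in Auto.D100 was 0.44 (exact permutation test, adjusted p = 0.062), and the PSMB10 calls stayed. In Auto.D36 the pair was not called (0.49), and it was called without R.62, at 0.87.

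**Figure D4:**
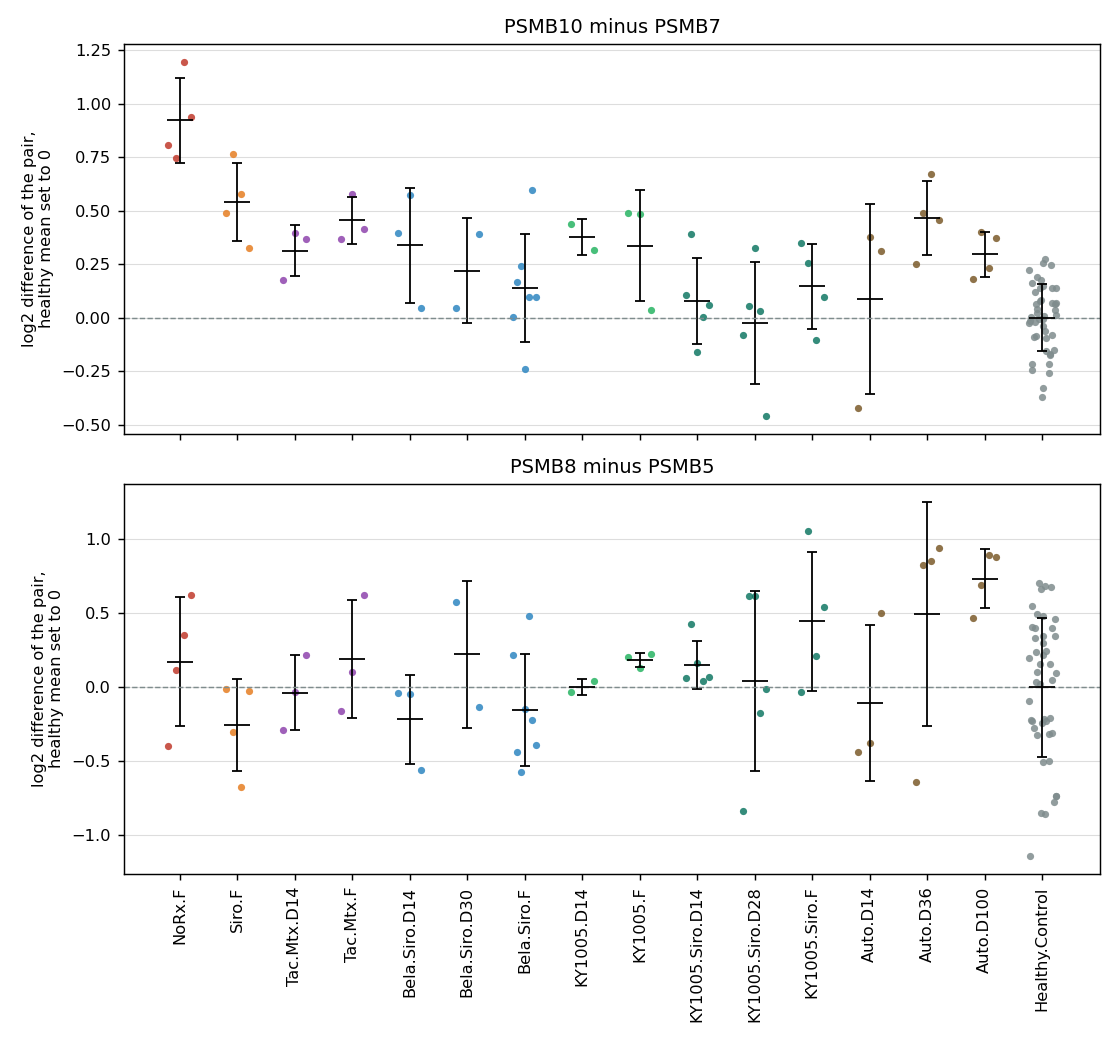
Log2 difference of PSMB10 minus PSMB7 (top) and PSMB8 minus PSMB5 (bottom) on every array by group, with the healthy mean set to 0 and the mean and SD of each group in black. The 4 NoRx.F arrays lie between 0.75 and 1.20 in the top panel, above all healthy arrays, and between -0.40 and 0.63 in the bottom panel, within their range.

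Among the 45 healthy animals, members varied together to a moderate degree. The median correlation over the 210 pairs of constitutive subunits was 0.284, over the 3 pairs of interferon-induced genes 0.447, and between the classes, over 63 pairs, 0.255. PSMB10 was most correlated with PSMB7 (0.758) and PSMB1 (0.694), and PSME2 with PSMB2 (0.586). These values share arrays and RNA quality, and are given as a description.

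The actin ratio went with particular subunits in opposite directions. Over healthy animals, the actin ratio correlated with PSMC3 at r = -0.897 (rho = -0.755), with PSMD11 at r = -0.808 (rho = -0.679) and with PSMC6 at r = -0.74 (rho = -0.611). It correlated with PSME3 at r = 0.656 (rho = 0.613) and with PSMC5 at r = 0.534 (rho = 0.381). In all, 28 such relations were computed, and without the 2 animals farthest from the median ratio r was -0.829 for PSMC3, -0.686 for PSMD11, -0.544 for PSMC6, 0.569 for PSME3 and 0.393 for PSMC5. With batch means removed r was -0.892 for PSMC3 and 0.651 for PSME3. In permutation tests with 100000 resamples the p for r, adjusted over the 28, was 7e-05 for PSMC3 and PSME3. PSME2 (r = -0.16, adjusted p = 0.362, permutation test) and PSMB2 (r = 0.151, adjusted p = 0.365) had no relation past the threshold, and PSMB10 (r = -0.492) and PSMB8 (r = -0.503) had one.

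**Figure D5:**
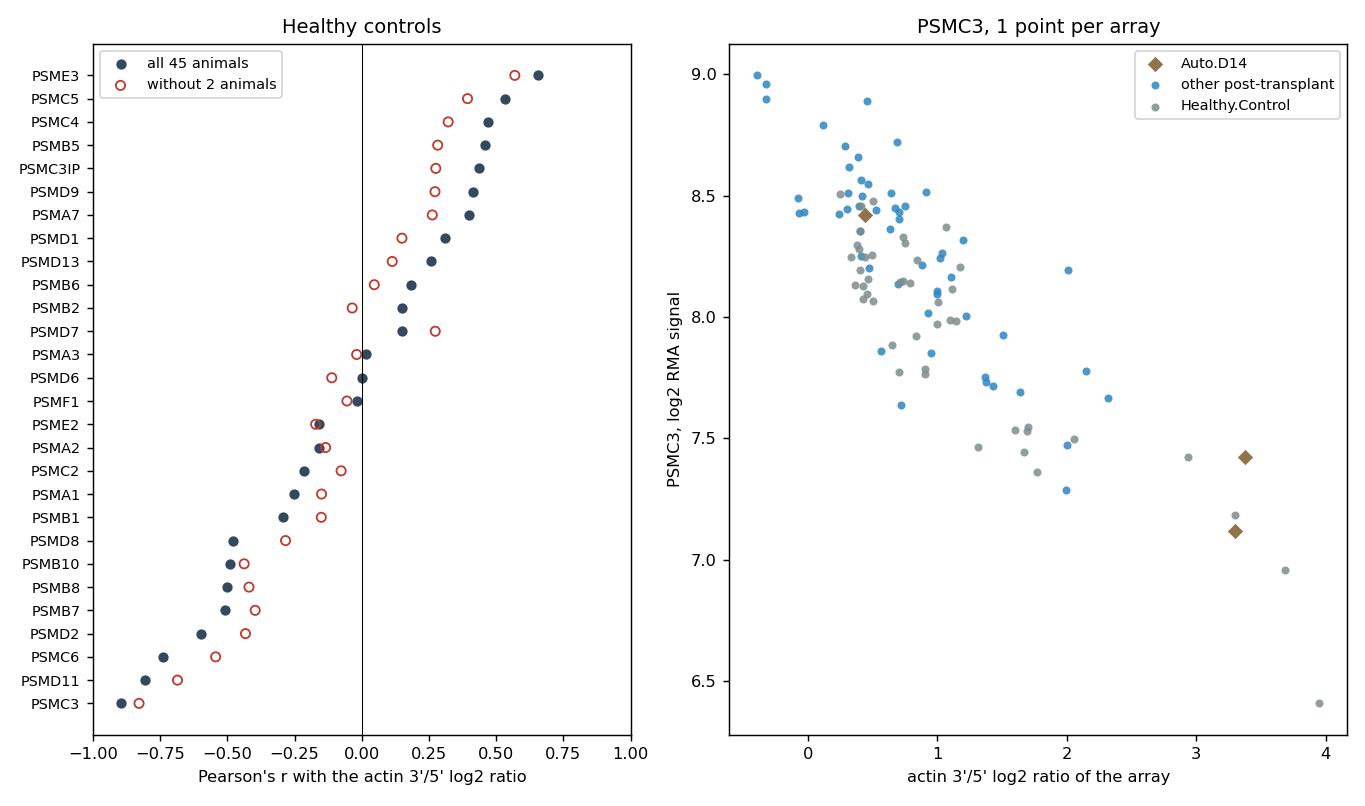
Left, Pearson's r between the actin 3′/5′ log2 ratio and the level of each of the 28 genes over 45 healthy animals (filled) and without 2 of them (open). Right, PSMC3 level against that ratio on every array, where the 2 Auto.D14 arrays with ratios of 3.30 and 3.38 lie at 7.12 and 7.42, beside healthy arrays of like ratio.

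Several genes had more than 1 probe set, and these did not always move alike. In NoRx.F, PSMA2 had 5 probe sets past the filter, of which 2 were called higher and 3 lower, the one used here having the highest mean. PSMD6 had 1 higher (0.44, used here) and 1 lower (-0.73, with a mean of 5.07, near the median of all values). Both PSMB10 probe sets were higher, by 1.54 and 1.56, and both PSMB5 probe sets, by 0.66 and 1.05. Of 8 PSMC3IP probe sets, 1 was called lower (-0.46, used here) and 0 higher. The direction of PSMA2, PSMD6 and PSMC3IP is therefore uncertain on these arrays.

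Genes around the proteasome, from lists drawn up with earlier results of these data known, are set beside the 19.0% of all genes higher and 15.2% lower in NoRx.F. Among 7 assembly chaperones and related factors, a list that includes the member PSMD9, 5 were higher and 0 lower. These were PSMD9 at 0.67, PSMG2 at 0.50, ECPAS at 0.43, PSMG4 at 0.39 and PSMG3 at 0.36. Of them, PSMG2, PSMG3 and PSMG4 help to build the 20S core. Of 11 ubiquitin receptors, shuttles and related factors 5 were higher, among them SEM1 (0.68), a small 19S subunit named outside the rule, and ADRM1 (0.55), the 19S ubiquitin receptor, and 2 were lower, near the share of all genes, UBQLN2 (-0.55) and UBE3C (-0.49). NFE2L1, the transcription factor that raises proteasome genes when the proteasome is inhibited, was lower by 0.49 on the log2 scale (SE 0.12, adjusted p = 0.00131), and it was the 1 called gene among 11 of its pathway.

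Of 12 genes of antigen peptide processing and transport in NoRx.F, 3 were higher and 2 lower, shares near the 19.0% and 15.2% of all genes. TAP1, a peptide transporter encoded beside PSMB8 and PSMB9, was higher by 0.33 (SE 0.13, adjusted p = 0.0459), with TAPBP at 0.36 and BLMH at 0.60. ERAP1, which trims peptides in the endoplasmic reticulum, was lower by 0.88 (SE 0.13, adjusted p = 4.23e-08), and NLRC5, which activates MHC class I genes, by 0.39. IRF1 had a difference of -0.40 (adjusted p = 0.178) and was not called. MKI67, a marker of dividing cells, was higher by 3.30 (SE 0.37, adjusted p = 1.56e-11), as were CCNB2 by 4.69 and TYMS by 4.02.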

How the data were processed

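Array values were used as the authors deposited them, as log2 signals per probe set, and per the submitters' processing notes they were made with RMA and the affy package (versions not given in the sources used here). Of 52865 probe sets, 31711 reached the overall median of 5.21 on at least 3 arrays and were kept. Repeat arrays of a healthy animal were averaged, leaving 101 of 102. Gene names came from the platform annotation, in which 24969 probe sets have 1 gene and 361 several.

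limma 3.58.1 (R 4.3.3) was fitted to all 16 groups with batch (6 levels) as a term, with Benjamini-Hochberg adjustment over all kept probe sets and a threshold of 0.05. The fit was tested on simulated data. Scores are means of differences from healthy means. Pairs of catalytic subunits and actin relations were tested by permutation (Python 3.11.15, scipy 1.17.1), without batch in the test. The planned pair of PSMB9 and PSMB6 was not run, since PSMB9 is not analysed here.

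The members, the lists and the rule for names (catalytic subunits, activators and inhibitor, and the 5 largest called changes each way) were chosen with earlier results of these data known. Animals recur between groups: over 51 same-animal pairs of arrays the median residual correlation was 0.184. The number of arrays limits the precision. Alternatives covered the batch term, single batches, animal as a block, the filter, probe sets, quantile normalization, the actin ratio, the myeloid score and each animal left out.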

Additional observations from a re-analysis of the deposited data

Results flagged for a closer look

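The 80 sets of values tested were those of named members and of the constitutive and interferon-induced means, in groups of 4 to 10 arrays. Of these, 4 held an array far from the rest of its group by Dixon's criterion, and chance gives about 1 in 20. PSMB5 was 8.261 in NoRx.F animal R.51, where the other 3 lay between 8.747 and 8.843. PSMB6 was 10.94 in Auto.D100 animal R.200, where the others lay between 10.71 and 10.72. PSMB7 was 11.26 in Auto.D36 animal R.62, against 11.46 to 11.48 in the others. PSMF1 was 7.846 in KY1005.Siro.D14 animal R.221, against 8.557 to 8.708 in the others.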

How the results depend on the processing

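Averaging all probe sets of a gene turned the direction of several called values: in NoRx.F, PSMA2 (-0.453), PSMD6 (-0.144) and PSMC3IP (0.0213). The same held for PSMA2 in Tac.Mtx.F (-0.173), Auto.D14 (-0.394) and Auto.D36 (-0.298), and for PSMC4 in Auto.D14 (-0.238). It also held for PSMA2 in Siro.F against NoRx.F (0.287) and PSMD6 in KY1005.F against NoRx.F (0.308). PSMC5 in Auto.D14 was not called in the main fit, and with averaging it was called lower (-0.404). That averaging also gave 0 calls in Bela.Siro.D30, KY1005.F, KY1005.Siro.D14 and Auto.D100, 5 in Bela.Siro.F, 10 in Siro.F against NoRx.F and 8 in KY1005.F against NoRx.F. Without the batch term there were 3 calls in KY1005.D14, 7 in KY1005.F, 7 in KY1005.Siro.D28, 3 in KY1005.Siro.F and 4 in Auto.D100. Within the batches of the group there were 0 in KY1005.F, KY1005.Siro.D14 and KY1005.Siro.D28 and 6 in Siro.F against NoRx.F. Quantile normalization gave 11 in Siro.F, 2 in KY1005.F, 4 in KY1005.Siro.F and 1 in KY1005.Siro.F against KY1005.Siro.D14. With the myeloid score as a covariate there were 1, 2 and 4 calls in Bela.Siro.D14, D30 and F, 2 in KY1005.F and 0 in KY1005.Siro.D14. With the actin ratio as a covariate there were 3 in Bela.Siro.D30, 0 in KY1005.F, 1 in KY1005.Siro.D28 and 7 in Auto.D36, and without arrays of high ratio 0 in KY1005.F, KY1005.Siro.D28 and Auto.D14, where Auto.D14 then holds 1 array, assumed to vary like the other groups, and its count says nothing of the ratio. Without the filter KY1005.Siro.D28 had 1. The causes were not tested.

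With 1 animal left out, calls ranged from 22 to 26 in NoRx.F, 1 to 7 in Siro.F, 1 to 4 in Tac.Mtx.D14, 6 to 13 in Tac.Mtx.F, 0 to 4 in Bela.Siro.D14, 0 to 1 in Bela.Siro.D30 and 5 to 9 in Bela.Siro.F. They ranged from 0 to 0 in KY1005.D14, 0 to 1 in KY1005.F, 0 to 1 in KY1005.Siro.D14, 0 to 3 in KY1005.Siro.D28, 0 to 6 in KY1005.Siro.F, 5 to 17 in Auto.D14, 6 to 15 in Auto.D36 and 0 to 0 in Auto.D100. Against NoRx.F they ranged from 10 to 19 in both Siro.F and KY1005.F, and from 0 to 2 in KY1005.Siro.F against KY1005.Siro.D14 (2 without R.217).

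Animal as a random replicate block gave 26 calls in NoRx.F and 16 in KY1005.F against NoRx.F, and moved no count by over 1.5 times. As a fixed replicate block it gave 0 in KY1005.Siro.F against KY1005.Siro.D14. Within the 4 animals of Auto.D100 paired with their own healthy arrays (replicate block), PSMB8 minus PSMB5 was 0.508 and PSMB10 minus PSMB7 was 0.167.

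PSMB10 minus PSMB7 in KY1005.D14 was 0.295 and in KY1005.F 0.256 within the batch, and 0.33 in Auto.D14 over all probe sets. With the healthy actin slope removed, chosen after seeing the data, PSMB8 minus PSMB5 in Auto.D100 was 0.437. With 1 animal left out, PSMB10 minus PSMB7 ranged from 0.274 to 0.384 in Tac.Mtx.D14, 0.223 to 0.486 in Bela.Siro.D14 (0.31 without R.38), 0.0625 to 0.202 in Bela.Siro.F, 0.317 to 0.437 in KY1005.D14, 0.261 to 0.488 in KY1005.F (0.265 without R.206), 0.0825 to 0.234 in KY1005.Siro.F and -0.0555 to 0.344 in Auto.D14, and PSMB8 minus PSMB5 from 0.345 to 0.873 in Auto.D36. The calls gained were in Bela.Siro.F without R.68, KY1005.Siro.F without R.220 and Auto.D14 without R.201.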

Other observations

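One probe set past the filter is annotated to both PSMB10 and BEX4. In NoRx.F it differed from healthy controls by 0.0065 (SE 0.12, adjusted p = 0.979, limma), where the 2 probe sets annotated to PSMB10 alone were higher by 1.54 and 1.56. This value was looked up after the others were seen, and which transcript that probe set reads was not tested.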
